A study of Mus musculus with 43 samples.

Results

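Wild-type mouse cardiomyocytes taken 3 days after myocardial infarction (MI), the death of heart muscle that follows a blocked coronary artery, were compared with wild-type cardiomyocytes of uninjured hearts (homeostasis). The 6 libraries, 3 of each state, were chosen by their labels from 43 bulk RNA libraries of whole hearts, endothelial cells and cardiomyocytes from wild-type mice and from mice in which genome editing placed a premature stop (Q150X) in Vegfa, which encodes a growth factor that acts on blood vessels. The wild-type groups carry no edited allele and no agent was given. Titles of the Q150X libraries read ho where those of wild type read wt. Levels in other cells were read from wild-type endothelial cells (3 libraries at homeostasis and 2 at day 3) and wild-type whole hearts (3 at homeostasis and 4 at day 7), and the response was set beside that of Q150X cardiomyocytes (3 libraries at homeostasis and 3 at day 3). Strain, age and sex, how the cells were isolated, which region of the infarcted heart they came from and whether replicates are separate animals are not stated in the labels. A p-value below therefore measures only the spread between these samples.

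Cardiomyocytes are the contractile cells of the heart and burn mainly fatty acids in densely packed mitochondria. After an infarct the myocytes that survive carry more load, and adult heart muscle is known to turn back on genes of the fetal heart, such as those of atrial natriuretic peptide and of the beta heavy chain of myosin, while genes of oxidative metabolism are known to decline. At the same time dead muscle is cleared by neutrophils and macrophages and replaced by matrix from fibroblasts, so a preparation of myocytes from such a heart can carry RNA of these cells.

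The libraries held 25035490 to 42246348 counts over 57010 genes. Replicates correlated at r = 0.9715 to 0.9847 (log2 CPM across genes, which are not independent replicates), and no pair was identical or within counting noise. The label of the cells was checked against 15 cardiomyocyte markers. Summed, they stood at 90640 to 101900 CPM (counts scaled to the library total, here with TMM factors, the trimmed mean of M values) at homeostasis and 66490 to 86040 at day 3, with none at 0. Their level at day 3 was 2840% (median) of that in the day-3 endothelial libraries. Other cells were present at low level: summed macrophage and monocyte markers rose from 8.69 to 17.1 CPM at homeostasis to 221 to 454 at day 3. Among the day-3 libraries, library 1 held the most macrophage marker RNA (454 CPM, against 359 and 221) and the least cardiomyocyte marker RNA (66490 CPM, against 79450 and 86040), and among those of homeostasis library 2 held the most endothelial marker RNA (1017 CPM, against 483 and 450). The comparison libraries have limits as well. The 2 endothelial libraries of day 3 held 271 and 220 CPM on total counts of the leukocyte gene Ptprc against 18.1 to 27.4 at homeostasis, and carried Xist (505 and 459) and hardly any Ddx3y (at most 0.246), so they differ from the homeostasis libraries and from all 6 cardiomyocyte libraries in sex-linked genes. Whole-heart homeostasis library 1 held the atrial light chain Myl7 at 539 CPM on total counts, against 0 in the other two.

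With 15169 genes tested by edgeR's quasi-likelihood test (Benjamini-Hochberg adjusted p under 0.05 over all of them, called rose or fell below), 2634 genes (17.4%) were called, of which 1539 (10.1% of the genes tested) rose and 1095 (7.22%) fell at day 3. Each gene was also given a source class from its level in the uninjured heart, set without the libraries compared. A gene is of the myocyte class if Q150X cardiomyocytes held at least 4 times the level of endothelial cells and at least 0.5 times that of whole heart. Of the 1127 tested genes of the myocyte class, 38 rose (3.37%) and 392 fell (34.8%), with a median log2 fold change of -0.35 against -0.01 over all genes. The endothelial class (4151 genes, at least 4 times higher in endothelial cells) went the other way: 848 rose (20.4%) and 130 fell (3.13%), with a median of 0.20. With myocyte-class factors (defined below) these were 1549 and 32 (median 0.55), and with TMM the falls numbered 58, 45 and 65 without homeostasis library 2, day-3 library 1 or day-3 library 3. Of 100 genes of the other-cell class (at least 4 times higher in whole heart than in myocytes) 40 rose, and the 8346 shared genes split into 485 that rose and 544 that fell with TMM, but into 2473 and 72 with myocyte-class factors and 2190 and 72 by library size. Without day-3 library 1 the shared class held 244 rises and 187 falls, without homeostasis library 3, 287 and 219, without homeostasis library 2, 304 rises, and without homeostasis library 1 or day-3 library 2, 352 and 346 falls.

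The number of falls depended on how the libraries were scaled. TMM assumes that most genes hold their level, and its factors differed between the groups (0.800 to 0.929 at homeostasis and 1.05 to 1.12 at day 3). With TMM factors taken from myocyte-class genes alone, log2 fold changes moved up by a median of 0.35, and 4383 genes rose (28.9%) and 240 fell (1.58%). These factors assume that most myocyte-class genes hold their level, so the median of that class lay near 0 by construction (0.005). By library size alone, the shift was 0.31, with 4109 that rose (27.1%) and 231 that fell (1.52%). The share of calls that were rises was 58.4% with TMM, 94.8% with myocyte-class factors and 94.7% by library size. Within the myocyte class, 138 rose and 115 fell under myocyte-class factors and 99 rose and 95 fell by library size. All 1539 genes that rose with TMM rose under the 3 other scalings tried (the third being the size factors of DESeq2), whereas 207 of the 1095 falls did, of them 90 of the myocyte class. Of those 90, 77 also kept the call in each of the 6 fits that left out a library. Single libraries mattered for the counts as well: 1352 genes were called without day-3 library 1 and 1583 without homeostasis library 3, and the falls of the myocyte class numbered 197 and 208 in these fits and 247 without day-3 library 2, and its rises 24 without homeostasis library 2. Falls below are therefore given with both TMM and myocyte-class factors for the lists. List counts are to be read against the shares over all genes given above for each scaling. Lists made up mostly of myocyte-class genes are to be read against the shares of that class (with TMM 3.37% rose and 34.8% fell). A list near those shares shows nothing particular to it. In bulk RNA, fewer cells of a type and less RNA per cell cannot be told apart.

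**Figure D1:**
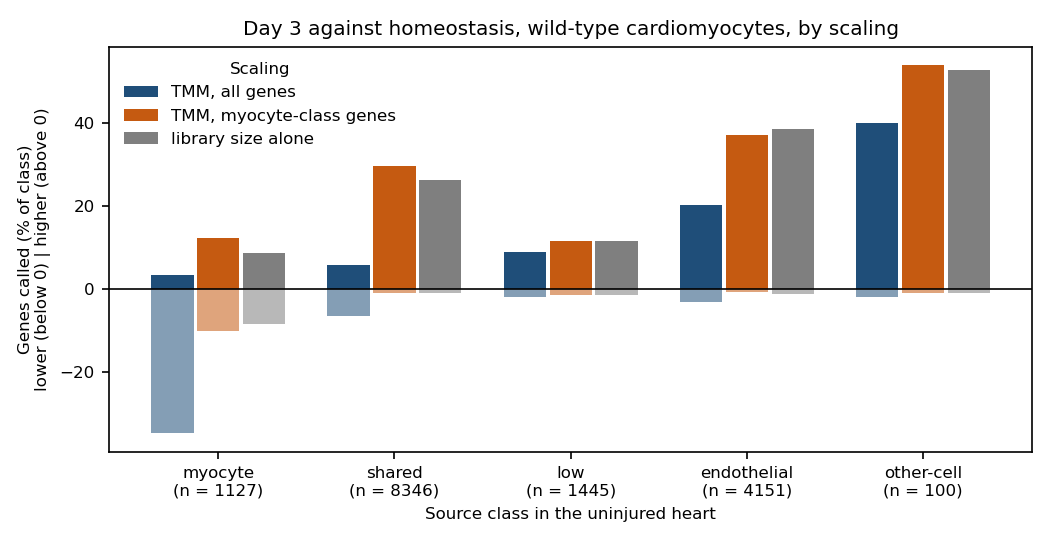
Share of the tested genes of each source class (x axis, number of genes in brackets) called higher (above 0) or lower (below 0) at day 3 in wild-type cardiomyocytes, in percent, under 3 scalings (colours). With TMM over all genes 34.8% of the myocyte class fell, and with factors from myocyte-class genes most of these falls were no longer called. Rises in the endothelial and other-cell classes stood under each scaling, where the other scalings move log2 fold changes up.

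A rise can come from the myocyte or from RNA of cells that entered the infarct. Genes that rose were therefore also given a side from their level after injury, again without the libraries compared: the myocyte side if day-3 Q150X cardiomyocytes held at least 4 times the level of day-3 endothelial cells and at least that of day-7 whole heart, and the other-cell side if either of those held at least 4 times the level of the myocytes. Of the 1539 genes that rose, 60 were on the myocyte side, 707 on the other-cell side and 772 undecided. Together with 8 myocyte-class genes of undecided side, 68 rising genes were of the myocyte class or the myocyte side. Both criteria compare levels between libraries, and the cell of origin was not tested. All 68 also rose under myocyte-class and library-size scaling, which both moved values up, so this was all but fixed in advance. In each of the 6 fits without a library 43 kept the call. The median log2 fold change of the 68 was 0.87, the lowest 0.32, and 20 of the 68 stayed under 10 CPM at day 3. Genes named from these 68 outside the gene lists were chosen after their values were seen.

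The 250 bases before the start of 4 of these genes are shown because they include the gene that went from no counts to the largest rise (Sprr1a), the textbook stress gene (Nppa), the stretch-responsive gene of the sarcomere (Ankrd1) and a gene of NAD synthesis (Nmrk2). They are RefSeq sequences of GRCm38.p6 on the gene's strand, an earlier build than the GRCm39 of the counts. Capitals mark 3 motifs on either strand. CATTCC is the motif that TEAD factors are known to bind, read as its reverse complement in Ankrd1. TGANTCA is the core of the site of AP-1, the dimer of Fos and Jun proteins. The TATA box was searched as TATAAA.
Sprr1a (chr3:92485882-92486131, minus strand): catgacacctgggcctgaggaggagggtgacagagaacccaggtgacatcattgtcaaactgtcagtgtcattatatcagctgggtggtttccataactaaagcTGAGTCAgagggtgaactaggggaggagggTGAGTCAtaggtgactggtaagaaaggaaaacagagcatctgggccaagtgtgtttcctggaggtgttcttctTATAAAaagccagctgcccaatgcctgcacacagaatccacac
Nppa (chr4:148000472-148000721, plus strand): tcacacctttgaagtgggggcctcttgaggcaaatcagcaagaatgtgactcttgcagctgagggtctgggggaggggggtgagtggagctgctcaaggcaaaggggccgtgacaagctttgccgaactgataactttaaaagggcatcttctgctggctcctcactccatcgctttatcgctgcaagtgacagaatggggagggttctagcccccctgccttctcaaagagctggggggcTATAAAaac
Ankrd1 (chr19:36119845-36120094, minus strand): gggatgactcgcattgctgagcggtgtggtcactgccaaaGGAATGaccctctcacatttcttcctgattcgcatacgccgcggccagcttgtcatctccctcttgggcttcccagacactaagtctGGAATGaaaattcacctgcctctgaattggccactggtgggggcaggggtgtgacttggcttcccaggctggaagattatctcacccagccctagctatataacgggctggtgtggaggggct
Nmrk2 (chr10:81202038-81202287, minus strand): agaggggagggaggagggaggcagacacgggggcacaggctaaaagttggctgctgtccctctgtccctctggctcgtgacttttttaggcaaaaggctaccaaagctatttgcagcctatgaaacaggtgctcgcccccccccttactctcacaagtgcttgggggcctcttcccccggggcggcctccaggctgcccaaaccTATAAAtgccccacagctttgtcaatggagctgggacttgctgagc
The Sprr1a window holds 2 TGANTCA matches, 146 and 116 bases before the start, and a TATAAA 43 bases before it. Ankrd1 has 2 CATTCC matches at 210 and 123 bases, and Nppa and Nmrk2 have TATAAA at 9 and 46 bases. Of all 32851 RefSeq promoters of this length 12.6% hold CATTCC, 6.75% TGANTCA and 12.4% TATAAA on either strand. Among the 45 promoters found for the 68 genes, 2 held CATTCC (4.44%), 2 TGANTCA (4.44%) and 9 TATAAA (20%), against 10.6%, 4.45% and 6.82% of the promoters of all tested genes. These are letter matches and not binding sites.

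Sprr1a, a small proline-rich protein of the cornified envelope that stressed myocytes are known to express, had 0 counts in all 3 libraries at homeostasis and 105, 43.5 and 46.8 CPM in the 3 libraries of day 3. That is at least 1681-fold higher (0 against 8068 counts, with a floor of 3 counts over the group; adjusted p = 0.00166). Day-3 library 1 was the highest, and all 3 stood far above the floor. Q150X cardiomyocytes at homeostasis held a mean of 0.106 CPM, so Sprr1a passed the filter on low counts through day-3 libraries. A rise was the only call open to it, and its adjusted p is no separate support. On total counts the level in myocytes was 71.3 CPM against 2.12 in day-3 endothelial cells and 2.27 in day-7 whole heart.

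Nppa, which encodes atrial natriuretic peptide, went from 21.7, 16.2 and 15.5 CPM to 461, 257 and 369 CPM (log2 fold change 4.35 ± 0.48, SE, adjusted p = 5.67e-04). The groups were separated more than 10-fold, and of 7 atrial markers tested Nppa alone was called, while Myl7, the atrial light chain, stood at 0.06 CPM at day 3. The class of Nppa from uninjured hearts was other-cell because of whole-heart library 1, which held 1050 CPM on total counts against 27.8 and 27.3 in the other two. Nppb, the gene of B-type natriuretic peptide, did not pass the test. It stood at 229, 198 and 180 CPM in uninjured hearts and 287, 254 and 164 after the infarct (0.21 ± 0.20, adjusted p = 0.506), so the groups overlapped.

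The beta myosin heavy chain Myh7, the slow isoform of the fetal ventricle, rose from 166, 208 and 206 CPM to 752, 646 and 508 (1.72 ± 0.33, adjusted p = 0.00685). The alpha chain Myh6, the main isoform of the adult mouse ventricle, was lower in all 3 day-3 libraries (16710, 23420 and 25230 against 27900 to 30820 CPM) but was not called (-0.45 ± 0.15, adjusted p = 0.0534), and under myocyte-class scaling its difference was -0.11. Reads from these near-identical paralogs may be split uncertainly by the counting. Skeletal actin Acta1, another fetal gene, overlapped between groups (501, 219 and 194 against 599, 491 and 383 CPM; 0.69 ± 0.40, adjusted p = 0.273).

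Ankrd1, a stretch-responsive repeat protein bound to titin, went from 839, 801 and 730 to 1942, 1741 and 1351 CPM (1.09 ± 0.17, adjusted p = 9.54e-04). Fhl1, a LIM protein of the titin spring region, went from 75.0, 106 and 99.7 to 358, 342 and 290 CPM (1.82 ± 0.21, adjusted p = 1.59e-04), with no overlap. Pdlim5, a Z-disc adaptor for protein kinases, rose by 0.89 ± 0.13 (735, 612 and 660 to 1313, 1218 and 1199 CPM) and the intermediate filament desmin, Des, by 0.75 ± 0.12 (1346 to 1554 against 2272 to 2729 CPM). The actin regulator Enah (0.79 ± 0.14) and the laminin receptor subunit Itga7 (0.68 ± 0.09) rose as well. Xirp2, an actin-binding protein of intercalated discs, was called in the full fit (0.77 ± 0.21, adjusted p = 0.0276) but in only 2 of the 6 fits that left out a library, with values of 0.67 to 0.76 in the 4 others.

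Of 31 tested genes of the list of stress and fetal genes 17 rose and 0 fell with TMM (median 0.75), and 22 rose and 0 fell with myocyte-class factors (median 1.11). By side, 6 of the 17 were on the myocyte side (Nppa, Fhl1, Des, Ankrd1, Enah and Xirp2), 6 on the other-cell side and 5 undecided. Those of the other-cell side are also expressed by non-myocytes, among them the actin crosslinker Actn1 (2.18 ± 0.23) and the transcription factor Runx1 (0.516, 0.546 and 0.658 to 3.17, 3.11 and 1.43 CPM; 2.15 ± 0.41). For Actn1 the day-3 level in myocytes was 21.9% of that in endothelial libraries, and for Runx1 8.47%. Without library 1 of day 3, 10 of the 31 rose, and without homeostasis library 3, 11 did.

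Some of the strongest rises were in metabolic and secreted products that are not part of the fetal list. Clusterin, Clu, a secreted chaperone, was already abundant and rose from 501, 624 and 599 to 2095, 1952 and 1986 CPM (1.81 ± 0.12, adjusted p = 1.59e-06), and its day-3 level was 742% of that in endothelial libraries. Nmrk2, the muscle kinase that makes NAD from nicotinamide riboside, rose from 2.37, 4.02 and 3.98 to 58.6, 31.5 and 38.7 CPM (3.62 ± 0.30, adjusted p = 3.41e-05). Star, the carrier of cholesterol into mitochondria for steroid synthesis, rose from 0.903, 2.14 and 1.19 to 31.8, 32.4 and 25.2 CPM (4.40 ± 0.33, adjusted p = 1.36e-05). No value of any of these genes at homeostasis reached one of day 3.

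Hsd3b1, a steroid dehydrogenase acting after Star in the same pathway, had 0 counts at homeostasis and 1.91, 1.52 and 2.06 CPM at day 3 (at least 48.3-fold, adjusted p = 7.04e-05). Crct1, a cornified-envelope-related protein gene, also started from 0 counts (1.97, 2.35 and 1.58 CPM at day 3, at least 51.9-fold). Hsd3b1 and Crct1 stood at 0 CPM in Q150X cardiomyocytes at homeostasis too, so both passed the filter on low counts through day-3 libraries only. A rise was the only call open to them, and the adjusted p is no separate support. Fast skeletal troponin T, Tnnt3, went from 0.164 ± 0.0975 to 1.86 ± 0.433 CPM (SD, n = 3), the chemokine receptor Cxcr6 from 0.37 to 6.63, and the kinase Pak3 from 0.705 to 5.94. Their levels stayed low. Cxcr6 is also a T-cell gene, and none of the 14 lymphocyte markers had enough counts to be tested. On total counts Cxcr6 stood at 7.23 CPM in day-3 myocytes, 2.00 in day-3 endothelial cells and 0.445 in day-7 whole heart.

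**Figure D2:**
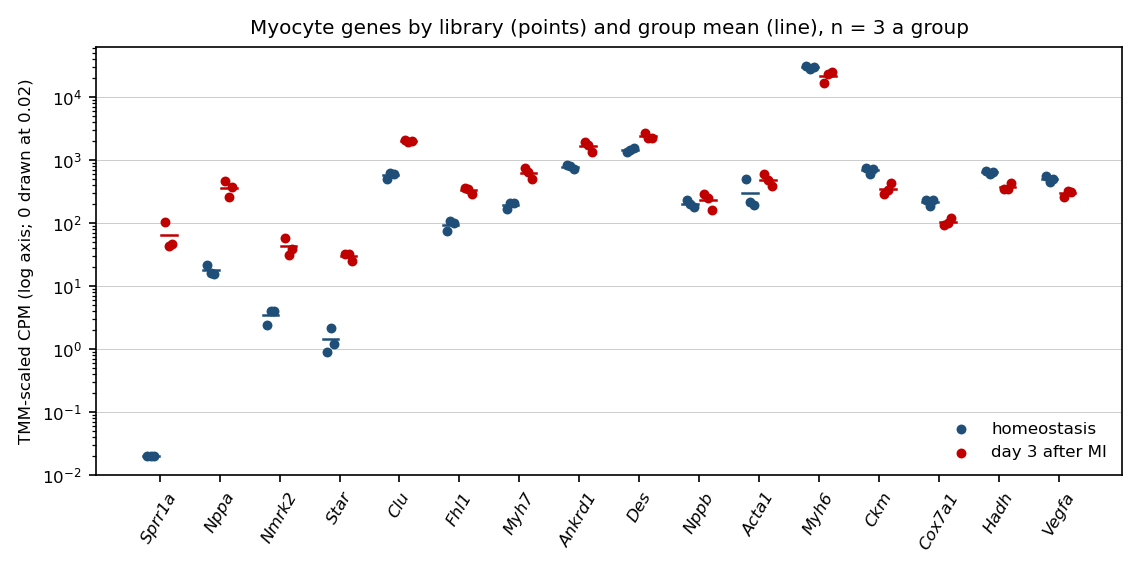
Level of 16 genes in each of the 6 wild-type cardiomyocyte libraries (points) with the group mean (line, n = 3), in TMM-scaled CPM on a log axis, at homeostasis (blue) and day 3 (red), with 0 drawn at 0.02. Sprr1a, Nppa, Nmrk2 and Star stand apart between the groups, Nppb and Acta1 overlap, and Ckm, Cox7a1, Hadh and Vegfa are lower in all 3 libraries of day 3.

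**Figure D3:**
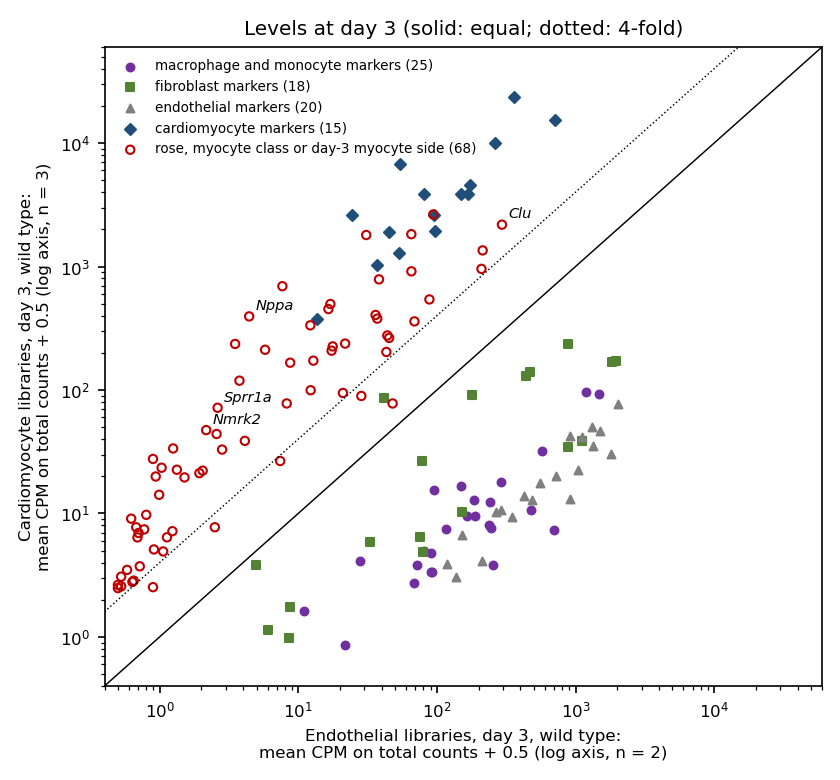
Mean level at day 3 in wild-type cardiomyocytes (y axis, n = 3) against wild-type endothelial cells (x axis, n = 2), CPM on total counts plus 0.5, log axes, for marker genes of 4 cell types and for the 68 rising genes of the myocyte class or myocyte side (open circles). Macrophage and endothelial markers lie below the line of equality and cardiomyocyte markers above the 4-fold line, as do most of the open circles, whose side was set with Q150X libraries.

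Of 29 sarcomere genes 2 rose (Pdlim5 and Smpx) and 9 fell with TMM, with a median of -0.14 that turned to 0.22 with myocyte-class factors (9 rose and 2 fell). All 29 were of the myocyte class, of which 34.8% fell with TMM (median -0.35), so these falls are not particular to the list. Smpx lost its call without homeostasis library 2 (0.41) or day-3 library 1 (0.36). Ventricular light chain Myl2 stood at 5454 ± 313 against 3579 ± 303 CPM (SD, n = 3; -0.61 ± 0.10 with TMM, adjusted p = 0.00125, and -0.26, still called, with myocyte-class factors). Myl3 (-0.48 ± 0.11), the Z-disc protein Myoz2 (-0.50 ± 0.10), the M-band protein Myom2 (-0.53 ± 0.12) and titin Ttn (-0.52 ± 0.13) fell with TMM but not with myocyte-class factors or library size, and Ttn lost its call without day-3 library 1 (-0.39). Myh7b, a myosin heavy chain whose locus holds a muscle microRNA, stood at 169 to 191 against 45.6 to 69.2 CPM (-1.68 ± 0.45, adjusted p = 0.0326) but lost its call in each of the 6 fits that left out a library, at -1.55 to -1.87. Falls in this list numbered 5, 5 and 4 without homeostasis library 1, homeostasis library 3 or day-3 library 1.

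Of 23 calcium handling genes 3 rose and 6 fell with TMM (median -0.23, turning to 0.11 with myocyte-class factors, 7 rose and 1 fell). With those factors 28.9% of all genes tested rose and 1.58% fell. Of the 16 myocyte-class members 4 fell with TMM, against 34.8% of that class. The sodium-calcium exchanger Slc8a1, which extrudes calcium between beats, rose from 474, 456 and 515 to 707, 772 and 696 CPM (0.59 ± 0.11, adjusted p = 0.00178). Hrc, the histidine-rich calcium buffer of the sarcoplasmic reticulum, fell under every scaling (1067 ± 36.7 to 664 ± 117 CPM; -0.69 ± 0.14, adjusted p = 0.0033). The calcium pump Atp2a2 did not pass (-0.23 ± 0.14, adjusted p = 0.265), and its sign turned to 0.11 with myocyte-class factors. The release channel Ryr2 was just called with TMM (-0.43 ± 0.14, adjusted p = 0.0475) and lost the call without any of 4 libraries (-0.26 to -0.47), the 3 of homeostasis and day-3 library 1. Without these or day-3 library 2, falls in the list numbered 2 to 5.

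Of 30 ion channel and gap junction genes 4 rose and 9 fell (median -0.31, and 0.04 with myocyte-class factors, 9 rose and 6 fell). Of the 17 myocyte-class members 5 fell with TMM, against 34.8% of that class. Atp1b1, the beta subunit that carries the sodium pump to the membrane, rose from 233, 242 and 253 to 465, 402 and 380 CPM (0.78 ± 0.11, adjusted p = 3.01e-04). Abcc9, the sulfonylurea receptor of the KATP channel (-0.82 ± 0.19), and the T-type calcium channel Cacna1h (-1.30 ± 0.25) fell under every scaling. Abcc9 is of the shared class and Cacna1h of the endothelial class. Hcn4, the pacemaker channel, had a TMM value of -1.13 ± 0.30 and lost its call without homeostasis library 3 (-0.86) or day-3 library 1 (-0.88), where the list held 4 and 3 falls.

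In 31 genes of adrenergic and muscarinic signalling 4 rose and 3 fell (median -0.09, and 0.24 with myocyte-class factors, 9 rose and 1 fell), and 1 fell without homeostasis library 3 or day-3 library 1. Over all genes tested 10.1% rose and 7.22% fell with TMM, and 28.9% and 1.58% with myocyte-class factors. The alpha-1A receptor Adra1a, the receptor for norepinephrine that promotes myocyte survival, fell under every scaling (35.9 ± 2.96 to 18.6 ± 5.22 CPM; -0.94 ± 0.20, adjusted p = 0.00707). The regulatory subunit of protein kinase A, Prkar1a, rose (548 ± 55.3 to 887 ± 138 CPM; 0.70 ± 0.12, adjusted p = 0.0013).

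Genes of energy metabolism made up the broadest group of falls with TMM, at a size close to that of the whole myocyte class (median -0.35). Myocyte-class factors hold that class near 0 by construction, so the loss of falls with them is no separate check. Of 35 genes of fatty acid uptake and oxidation 22 fell and 1 rose (median -0.45), and with myocyte-class factors 6 fell and 1 rose (median -0.09). Hadh, which oxidises the hydroxyacyl intermediate of beta-oxidation, fell from 664, 609 and 636 to 342, 352 and 436 CPM (-0.76 ± 0.13, adjusted p = 9.73e-04) and fell under every scaling. The medium-chain dehydrogenase Acadm (-0.60 ± 0.11), the thiolase Acaa2 (-0.59 ± 0.12) and the carnitine transferase Cpt2 (-0.63 ± 0.13) fell with TMM and with myocyte-class factors but not by library size.

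The liver isoform of the entry enzyme, Cpt1a, was the 1 that rose (43.8 ± 3.29 to 60.2 ± 0.522 CPM; 0.46 ± 0.09, adjusted p = 0.00307). The muscle isoform Cpt1b (-0.45 ± 0.28), the coactivator Ppargc1a (-0.55 ± 0.31) and the pyruvate dehydrogenase kinase Pdk4 (-0.43 ± 0.57) overlapped between groups and were not called. Cpt1b was hardly counted (252 counts over the group at homeostasis and 295 at day 3, means of 3.15 and 2.32 CPM). Its lack of a call therefore does not show that this isoform was unchanged. Leaving out a library gave 11 to 25 falls in the fatty acid list, with 11 without homeostasis library 3, day-3 library 1 or day-3 library 2.

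Of 37 nuclear genes of complex I 24 fell (median -0.44) and of 38 of complexes III to V 23 fell (median -0.41), with 0 rises, and with myocyte-class factors 1 and 6 fell (medians -0.09 and -0.06). The muscle isoform of cytochrome oxidase subunit VIIa, Cox7a1, fell most clearly, from 231, 184 and 231 to 93.2, 98.8 and 122 CPM (-1.04 ± 0.15, adjusted p = 4.76e-04), and Cox5a went with it (151 ± 5.07 to 84.4 ± 6.79 CPM; -0.83 ± 0.16). Both fell under every scaling and in every fit without a library. In the tricarboxylic acid cycle 11 of 23 genes fell with TMM (median -0.32), among them Mdh2 (-0.58 ± 0.11), Sdha (-0.51 ± 0.12) and citrate synthase Cs (-0.43 ± 0.10), against 1 rise and 1 fall, that of Mdh2, with myocyte-class factors (median 0.03). Breakdown of ketones and branched-chain amino acids showed 13 falls of 24 with TMM (median -0.34), and 3 rises and 0 falls with myocyte-class factors (median 0.00). Without homeostasis library 3, day-3 library 1 or day-3 library 2 the falls numbered 9, 12 and 11 in complexes III to V, 5, 4 and 6 in the tricarboxylic acid cycle and 4, 5 and 8 in ketone and amino acid breakdown. Without homeostasis library 1 there were 13 in complexes III to V and 7 in ketone and amino acid breakdown.

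Most coding transcripts of the mitochondrial genome fell with TMM, as many of their nuclear partners did. Of 13 coding genes 9 fell with TMM (median -0.60, range -1.32 to -0.14), with mt-Nd5, a complex I subunit, at 56190, 82940 and 59430 CPM before and 38530, 40390 and 40370 CPM after the infarct (-0.74 ± 0.13, adjusted p = 0.00151). With myocyte-class factors 2 of the 13 fell (median -0.26), and with TMM 5 fell without homeostasis library 2, day-3 library 1 or day-3 library 2. In Q150X cardiomyocytes 2 of the 13 fell with TMM (median -0.33). The ribosomal RNAs mt-Rnr1 (3772, 6178 and 4230 to 1744, 2065 and 1902 CPM; -1.31 ± 0.20) and mt-Rnr2 (-0.94 ± 0.14) and the transfer RNA gene mt-Tq (-1.92 ± 0.28) fell under every scaling, and nuclear copies of mitochondrial sequence make their counts uncertain. The mitochondrial share of all counts was 39.6%, 49.95% and 41.5% at homeostasis and 37.7%, 36.0% and 36.4% at day 3, with homeostasis library 2 the highest.

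Both creatine kinases of muscle, which pass energy from mitochondria to myofibrils, fell under every scaling. The muscle creatine kinase Ckm went from 751, 595 and 725 to 288, 338 and 426 CPM (-0.98 ± 0.17, adjusted p = 0.0015), and the mitochondrial Ckmt2 from 1706 ± 98.3 to 1034 ± 78.6 CPM (-0.72 ± 0.11, adjusted p = 5.21e-04). Under myocyte-class factors the differences were -0.64 and -0.37, both called. The ADP/ATP carrier Slc25a4 (-0.61 ± 0.13) and myoglobin Mb (-0.58 ± 0.13) fell in both of these scalings but not by library size. Of the 15 genes in the list 4 fell and 1 rose (median -0.23, and 0.12 with myocyte-class factors, 6 rose and 4 fell).

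Of 32 genes of glycolysis and glucose uptake 7 rose and 7 fell with TMM (median -0.08), and 15 rose and 2 fell with myocyte-class factors (median 0.26). The isoforms common to many tissues, Pfkp (0.93 ± 0.15), Pgam1 (0.98 ± 0.18), Eno1 (0.65 ± 0.12) and Ldha (0.41 ± 0.09), rose, and their side was undecided. The muscle and heart isoforms Pfkfb2 (-0.81 ± 0.14), Eno3 (-0.56 ± 0.11) and Ldhb (-0.56 ± 0.11) fell with TMM, and with myocyte-class factors Eno3 (-0.22) was not called, Ldhb (-0.22) was, and Pfkfb2 fell under every scaling. Falls in the list numbered 3, 4 and 4 without homeostasis library 3, day-3 library 1 or day-3 library 2. Outside these pathways, the DNA polymerase gene Polq had the smallest p of the falls in the myocyte class (-1.10 ± 0.13, adjusted p = 6.38e-05), and the actin-capping protein Twf2 fell as well (203, 192 and 213 to 119, 109 and 116 CPM; -0.82 ± 0.12). Both genes fell under every scaling.

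**Figure D4:**
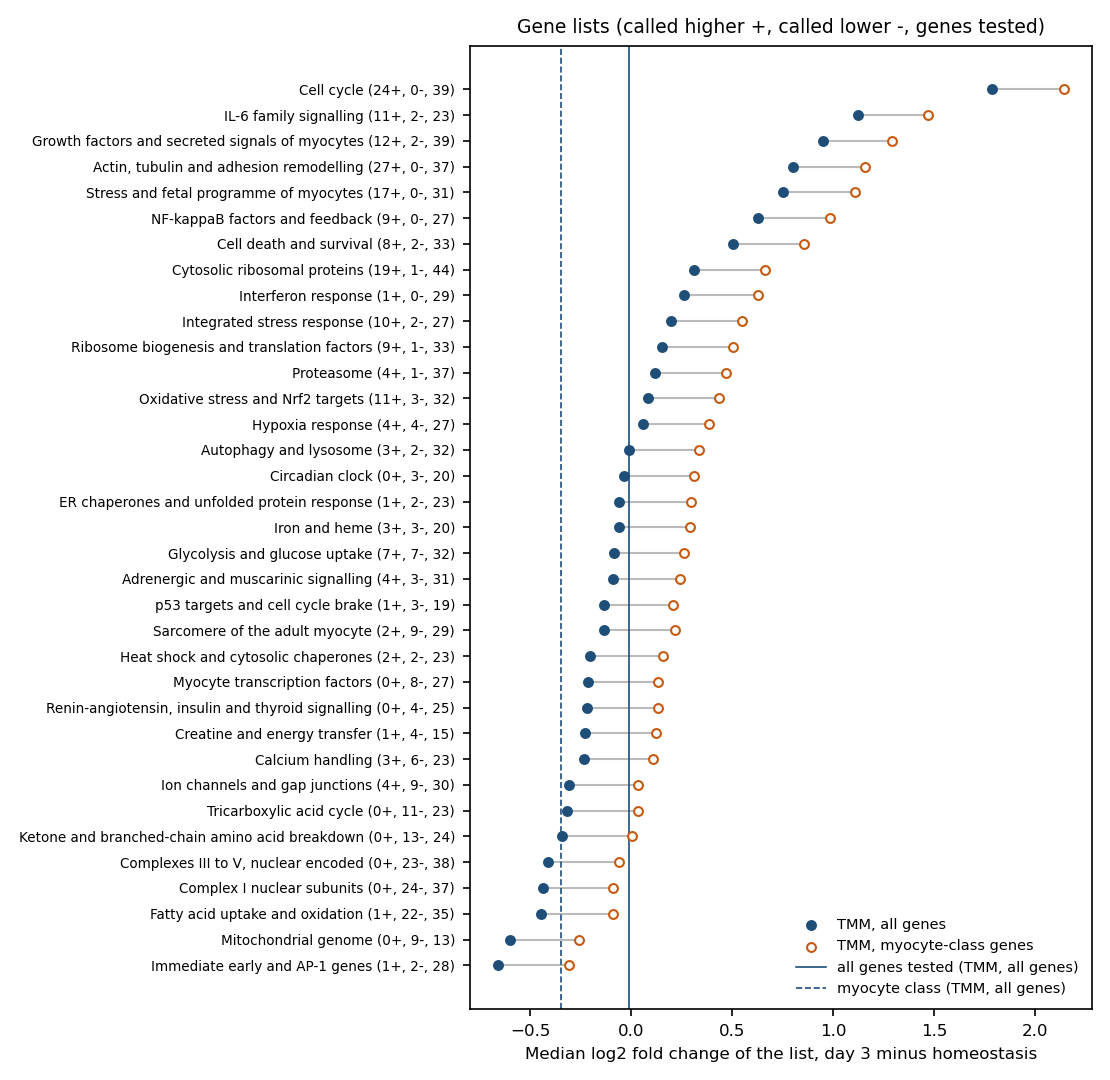
Median log2 fold change (x axis, day 3 minus homeostasis) of 35 gene lists in wild-type cardiomyocytes with TMM over all genes (filled) and with factors from myocyte-class genes (open), with the numbers called higher and lower and tested in brackets. The fatty acid, ketone, tricarboxylic acid and respiratory chain lists sit near the dashed line of the myocyte class (-0.35) with TMM. They sit near 0 with myocyte-class factors, which place that class near 0 by construction. The cell cycle list is highest with TMM (1.79).

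Among 27 transcription factors of the myocyte 0 rose and 8 fell (median -0.22, turning to 0.13 with myocyte-class factors, where 6 rose and 1 fell). The Kruppel-like factor Klf15, an activator of fatty acid and amino acid metabolism in heart, was the 1 that fell under every scaling (40.2, 43.4 and 43.5 to 14.7, 23.6 and 29.3 CPM; -0.91 ± 0.18, adjusted p = 0.00398). Tead1 (-0.58 ± 0.11) and the estrogen-related receptor Esrrg (-0.45 ± 0.10) fell with TMM but not with myocyte-class factors or library size. The list held 4 or 5 falls without homeostasis library 2 or 3 or day-3 library 1 or 2. Of 20 clock genes 3 fell and 0 rose with TMM, and 1 fell and 2 rose with myocyte-class factors. With TMM 1 fell without homeostasis library 1, day-3 library 1 or day-3 library 3. The largest fall was that of Arntl (9.93 ± 0.711 to 2.51 ± 0.919 CPM; -1.99 ± 0.48, adjusted p = 0.0156), which fell under every scaling but lost its call without day-3 library 2 (-1.76) or 3 (-1.93). The time of day of collection is not given in the sources used here.

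Vegfa itself is a myocyte-class gene. Its mRNA fell from 554, 456 and 496 to 258, 323 and 317 CPM in wild-type cardiomyocytes (-0.75 ± 0.16, adjusted p = 0.00506), with no overlap, and was lower under myocyte-class factors too (-0.40, called). In 27 genes of the hypoxia response 4 rose and 4 fell (median 0.06, and 0.39 with myocyte-class factors, 10 rose and 1 fell). The shares of all genes that rose and fell were 10.1% and 7.22% with TMM and 28.9% and 1.58% with myocyte-class factors. With TMM both counts were 2 without homeostasis library 3 or day-3 library 1, the rises were 2 without homeostasis library 1, and the falls 2 without day-3 library 2. The oxygen-sensitive factor Hif1a rose (113 ± 5.56 to 172 ± 49.3 CPM; 0.60 ± 0.16, adjusted p = 0.0212) but lost its call without homeostasis library 1 (0.57) or 3 (0.63) or day-3 library 1 (0.35), and Epas1, its endothelial relative, fell with TMM (-0.66 ± 0.13) but not with myocyte-class factors (-0.32).

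Of 37 genes of actin, tubulin and adhesion remodelling 27 rose and 0 fell (median 0.80), and 30 rose with each of the scalings by myocyte-class factors and library size. On the myocyte side were 3 of the 27, on the other-cell side 7, and 17 were undecided. The neuronal tubulin Tubb3 had 0 counts at homeostasis and 11.8, 5.68 and 5.29 CPM at day 3 (at least 197-fold, 0 against 945 counts; adjusted p = 1.51e-05). With a mean of 0.119 CPM in Q150X cardiomyocytes at homeostasis, Tubb3 passed the filter on low counts through day-3 libraries. A rise was the only call open to it. Tubb4b rose from 90.1, 81.4 and 80.0 to 165, 154 and 136 CPM (0.86 ± 0.10, adjusted p = 6.37e-05). At day 3 their levels in myocytes were 63.0% and 99.5% of those in endothelial cells. The same share was 0.991% to 15.6% for macrophage markers, but reached 208% for fibroblast and 129% for pericyte markers, and the source of the tubulins was not tested.

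The matrix proteins tenascin C, Tnc, and thrombospondin 4, Thbs4, rose from near 0. Tnc went from 0.946, 0.312 and 0.132 to 41.7, 45.2 and 25.5 CPM (6.42 ± 0.41, adjusted p = 1.14e-05) and Thbs4 from 1.65 ± 0.287 to 9.45 ± 1.59 CPM (2.52 ± 0.28, adjusted p = 5.18e-05). The level in day-3 myocytes was 35.1% of the endothelial one for Tnc and 183% for Thbs4, on total counts.

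Among 39 growth factors and secreted signals 12 rose and 2 fell (Vegfa and Vegfb; median 0.95), and with myocyte-class factors 22 rose and 1 fell (Vegfa; median 1.29), with Vegfb at -0.13. The list held 1 fall without homeostasis library 3, day-3 library 1 or day-3 library 2. Transforming growth factor beta 2, Tgfb2, rose from 6.28, 4.02 and 5.002 to 37.4, 33.7 and 28.4 CPM (2.71 ± 0.28, adjusted p = 1.03e-04), and its day-3 level was 334% of the endothelial one, although at homeostasis endothelial cells held more (43.0 against 4.51 CPM on total counts). The cytokine Ccl2 (4.77 ± 0.56) and the activin subunit Inhba (4.59 ± 0.52) rose on the other-cell side, Inhba at 5.16% of the endothelial level.

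Of 23 genes of the IL-6 family, cytokines that act through the shared receptor chain gp130 and STAT3, 11 rose and 2 fell with TMM and 13 rose and 0 fell with myocyte-class factors (median 1.13, and 1.47). The receptor for oncostatin M, Osmr, a known switch of myocyte dedifferentiation, rose from 8.64, 12.2 and 5.04 to 32.1, 33.5 and 22.7 CPM (1.77 ± 0.31, adjusted p = 0.00331). Its ligand Osm was at 0 counts at homeostasis and 0.689, 0.920 and 0.317 CPM at day 3 (at least 16.9-fold), and passed the filter on low counts through other libraries only. Of the 11 rises 7 were on the other-cell side, 0 on the myocyte side and 4 undecided. Without homeostasis library 3, 7 of the list rose. The 2 falls became 1 without homeostasis library 3 or day-3 library 3 and 0 without any other library. Osmr at day 3 stood at 16.6% of the endothelial level and is of the other-cell side.

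The acute phase inhibitor Serpina3n rose from 0.258, 0.429 and 1.15 to 46.4, 114 and 57.0 CPM (6.80 ± 0.56, adjusted p = 9.83e-05), with the highest value in day-3 library 2, and reached 66.5% of the endothelial level. Timp1 (6.31 ± 0.66) reached 30.0%. Socs3, the feedback inhibitor of the pathway, overlapped between groups (75.6, 43.5 and 41.6 against 39.4, 51.8 and 38.1 CPM; -0.31 ± 0.32, adjusted p = 0.553), and its sign turned to 0.05 with myocyte-class factors.

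Of 32 genes of oxidative stress and Nrf2 targets 11 rose and 3 fell (median 0.08), and with myocyte-class factors 18 rose and 0 fell (median 0.44). Of the 11 rises 5 were of the other-cell side. The 3 falls became 0 without homeostasis library 1 or 3 or day-3 library 1 and 1 without day-3 library 2. Gpx3, a secreted glutathione peroxidase, rose from 52.8, 67.5 and 70.4 to 270, 268 and 212 CPM (1.97 ± 0.15, adjusted p = 4.85e-06) at 185% of the endothelial level. It is of the other-cell class with an undecided side. On total counts whole heart held 270 CPM at homeostasis and 607 at day 7, against 55.4 and 272 in myocytes of homeostasis and day 3. The quinone reductase Nqo1, of the myocyte side, rose from 39.3 ± 7.43 to 71.2 ± 3.18 CPM (0.86 ± 0.13, adjusted p = 5.62e-04) and the glutathione synthesis subunit Gclm by 0.92 ± 0.14. Heme oxygenase Hmox1, much expressed by macrophages, rose by 3.10 ± 0.34 at 10.3% of the endothelial level.

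In the integrated stress response 10 of 27 genes rose and 2 fell (median 0.20; 16 and 1 with myocyte-class factors), 6 of the 10 on the other-cell side, and 5 rose without homeostasis library 2 or 3 or day-3 library 1. Gdf15, a hormone of this response, rose from 2.24, 1.17 and 1.05 to 4.52, 3.68 and 2.69 CPM (1.30 ± 0.31, adjusted p = 0.00925) and lost its call without homeostasis library 3 (1.10) or day-3 library 1 (1.12). The lipoprotein receptor Vldlr fell under every scaling (601 ± 22.5 to 372 ± 44.7 CPM; -0.69 ± 0.11, adjusted p = 7.43e-04). Of 23 genes of ER chaperones 1 rose and 2 fell with TMM, 0 and 0 of them without homeostasis library 3 or day-3 library 1, and 7 rose and 0 fell with myocyte-class factors. Of 23 heat shock genes 2 rose and 2 fell with TMM and 7 rose and 1 fell with myocyte-class factors, the heat shock factor Hsf1 falling under every scaling (-0.73 ± 0.13, adjusted p = 0.00132).

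Of 28 immediate early genes, which respond within minutes to stress and to cell isolation, 1 rose and 2 fell, although the list's median was -0.66 (-0.31 with myocyte-class factors, where 1 rose and 0 fell). Ier3 rose (19.3 ± 2.88 to 51.2 ± 8.02 CPM; 1.41 ± 0.17), and Atf3 spread from 60.9 to 231 CPM over the day-3 libraries (-0.92 ± 0.68, adjusted p = 0.401).

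The muscle and the common copy of ribosomal protein L3 moved in opposite directions. Rpl3l, the striated-muscle copy, was the 1 of 44 genes that fell, from 161, 169 and 188 to 75.4, 99.8 and 119 CPM (-0.82 ± 0.18, adjusted p = 0.00832), and its common counterpart Rpl3 had the smallest p of the 19 that rose (58.2, 49.9 and 45.0 to 217, 158 and 150 CPM; 1.78 ± 0.18, adjusted p = 4.33e-05). Both changed the same way under every scaling. Rpl3 is of the endothelial class, and its day-3 level was 32.0% of that in endothelial cells. The median of the 44 genes was 0.31, and with myocyte-class factors 42 rose (median 0.66). With TMM 12, 11 and 12 rose without homeostasis library 1, homeostasis library 2 or day-3 library 1. Counts of ribosomal proteins can be split with processed pseudogenes.

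The cell cycle list had the highest median of the 35: 24 of 39 genes rose and 0 fell (median 1.79), and 30 rose with myocyte-class factors and 15 with TMM without day-3 library 1. None of the 24 was of the myocyte side, 9 were of the other-cell side and 15 undecided, and their levels were low. The mitotic checkpoint kinase Bub1 went from 0.0506 ± 0.0450 to 2.35 ± 0.931 CPM (5.44 ± 0.68, adjusted p = 1.24e-04) and the replication helicase subunit Mcm6 from 1.56 ± 0.431 to 7.52 ± 2.02 CPM (2.26 ± 0.31, adjusted p = 2.67e-04). These levels were 28.1% and 9.42% of those in day-3 endothelial libraries. Bub1, near 0 at homeostasis, passed the filter on low counts through other libraries only.

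Of 27 genes of NF-kappaB 9 rose with TMM, all of the other-cell side, and 17 with myocyte-class factors, with 0 falls. Of 29 interferon genes 1 rose with TMM and 9 with myocyte-class factors, where 10.1% and 28.9% of all genes tested rose. Of 33 genes of cell death and survival 8 rose, 5 of them of the other-cell side (3 rose without day-3 library 1), and 2 fell, against 12 and 0 with myocyte-class factors. Tumor necrosis factor receptor Tnfrsf1a rose from 9.50 ± 1.45 to 22.1 ± 4.20 CPM (1.22 ± 0.15) and the feedback inhibitor Tnfaip3 from 1.82 ± 1.04 to 16.6 ± 3.15 CPM (3.22 ± 0.35). The p53 target Sesn1, a sestrin, fell under every scaling (177 ± 19.3 to 105 ± 17.5 CPM; -0.75 ± 0.12, adjusted p = 8.56e-04). Of 32 autophagy and lysosome genes 3 rose and 2 fell with TMM, but 17 rose and 0 fell with myocyte-class factors, and of 37 proteasome genes 4 rose and 1 fell against 30 and 0, and 0 proteasome genes rose without homeostasis library 2 or 3 or day-3 library 1. In ribosome biogenesis 9 of 33 rose and 1 fell with TMM, with 3 to 5 rises without homeostasis library 1 or 2 or day-3 library 1, and 21 rose and 0 fell with myocyte-class factors. In iron and heme 3 of 20 rose and 3 fell with TMM and 5 rose and 0 fell with myocyte-class factors, and 1 and 0 fell without homeostasis library 3 or day-3 library 1. In renin-angiotensin, insulin and thyroid signalling 0 of 25 rose and 4 fell with TMM, among them the insulin receptor Insr (-0.50 ± 0.10). Of that list 2 rose and 0 fell with myocyte-class factors (Insr at -0.16), and 1 fell without day-3 library 1 and 2 without homeostasis library 2 or 3 or day-3 library 2.

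All 25 macrophage and monocyte markers tested rose (median 4.35). Fcgr1, Itgam and Ccr2 had 0 counts at homeostasis, so these 3 passed the filter on low counts through other libraries only. Spp1 and Gpnmb did so as well, with means of 0.0329 and 0.149 CPM at homeostasis (0 and 0.0991 in Q150X cardiomyocytes). For markers this near 0 at homeostasis a rise was fixed in advance. Osteopontin, Spp1, went from 3 counts to 10949 counts in total (0, 0 and 0.0987 to 118, 103 and 42.2 CPM; ratio 2281, 95% counting interval 780 to 11060), with the lowest day-3 value in library 3. Ccr2, the receptor that brings monocytes to the infarct, rose at least 105-fold. Both are lowest in the day-3 library with the least macrophage marker RNA, but both are part of that sum, so this is no separate support.

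Fibroblast markers rose in 10 of 18 and fell in 1 with TMM (median 2.39; 12 rose and 0 fell with myocyte-class factors), and their sum went from 248 to 374 CPM at homeostasis to 778 to 1230 at day 3. Collagen Col1a1 rose from 4.12 ± 1.58 to 119 ± 38.3 CPM (4.86 ± 0.44, adjusted p = 1.63e-04) and stood at 29.3% of the endothelial level. Epicardial markers rose in 6 of 9 tested and neutrophil markers in 4 of 4 tested of 11. Of the 11 neutrophil markers 9 had 0 counts at homeostasis, and their sum at day 3 was 2.17 to 4.70 CPM. The tested ones passed the filter on low counts through day-3 libraries, so their rise was fixed in advance. Pericyte markers rose in 3 of 11 (median 0.145), and 0 of 3 Schwann cell markers were called. Endothelial markers fell in 3 of 20 and rose in 1 (median -0.62), with sums of 386 to 462 CPM at day 3 and 450 to 1017 at homeostasis. In Q150X cardiomyocytes 5 of the 20 rose and 0 fell (median 0.51). Timp4 (-2.26 ± 0.67) and Car4 (-1.95 ± 0.51), endothelial-class genes outside these 20 markers, were called in the full fit. Timp4 kept its call only without homeostasis library 1, and Car4 lost its call in 3 of 6 fits. Without homeostasis library 2, the richest in endothelial RNA, their values were -1.37 and -1.20. How much of each rise in the myocyte libraries comes from these cells was not tested.

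**Figure D5:**
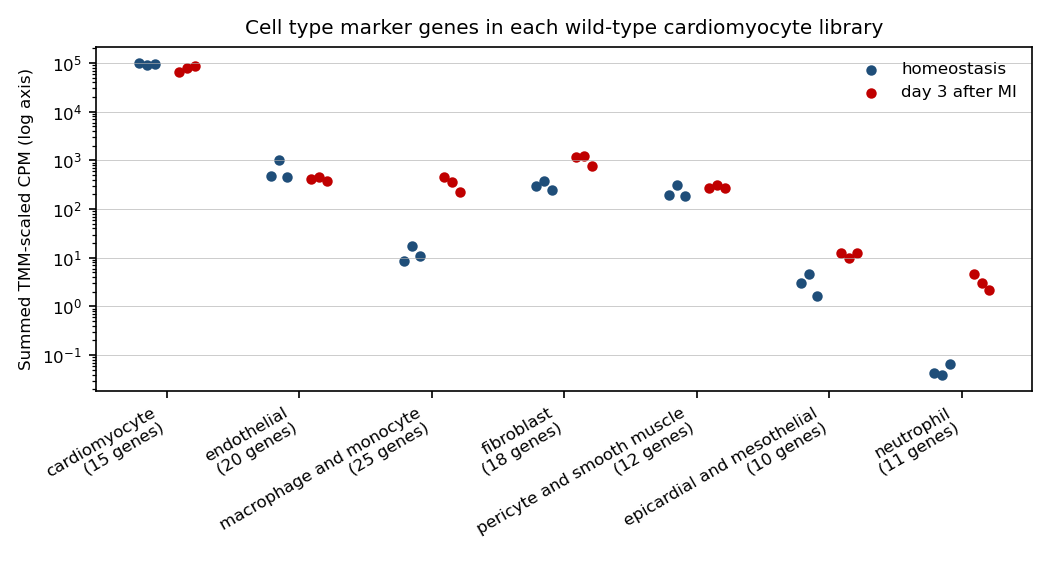
Summed TMM-scaled CPM (log axis) of the marker genes of 7 cell types in each wild-type cardiomyocyte library at homeostasis (blue) and day 3 (red), 3 libraries each. Cardiomyocyte markers are at 66490 CPM or more in every library, macrophage markers rise to 221 to 454 CPM, and endothelial markers do not exceed 462 CPM at day 3.

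Q150X cardiomyocytes, which carry the Vegfa stop codon, shared the filter, scaling and estimate of spread of the fit and set the source classes, but did not enter the wild-type contrast. They gave 4097 calls (27%), 2256 rises (14.9%) and 1841 falls (12.1%). Of the wild-type rises 1189 were shared, 77.3% of the wild-type and 52.7% of the Q150X list. The falls had 753 in common, 68.8% and 40.9%, and 0 genes were called in opposite directions. Counts of shared calls within the myocyte class or side are not given, since Q150X libraries set both.

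For single genes the Q150X log2 fold changes were 3.64 for Nppa, 2.25 for Myh7, 1.25 for Ankrd1, 1.70 for Clu, 3.45 for Nmrk2 and 4.11 for Star. Among the falls they were -1.14 for Ckm, -1.18 for Cox7a1 and -0.86 for Vegfa. Each passed the test, but Q150X levels had helped to set the class and side of these genes, so this is no independent support. Other named genes that were called in wild type did not pass there. Among them were Tubb4b (0.17, adjusted p = 0.234), Pgam1 (0.23, adjusted p = 0.372), Xirp2 (0.51, adjusted p = 0.0976) and Cacna1h (-0.38, adjusted p = 0.299). The difference between the responses, tested as an interaction, was called for 0 genes by edgeR, with 1186 genes at an unadjusted p under 0.05, and for 20 by DESeq2. By edgeR with no filter on low counts it was called for 219 genes.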

How the data were processed

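Bulk RNA was sequenced from isolated cardiomyocytes, endothelial cells and whole hearts. Per the labels' protocols RNA was extracted with Trizol. The values are whole-number counts per gene as deposited by the authors. Per the submitters' processing notes GRCm39, HISAT2 and kallisto were used; the labels do not state their roles, the counting rule or the use of strand. Gene symbols come from the GENCODE vM21 table for 52029 of 57010 IDs.

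The members and gene lists were chosen with earlier results of these data known. Counts were fitted with edgeR 4.0.16 (quasi-likelihood test, TMM, filterByExpr with a minimum count of 10, 15169 genes) over 12 cardiomyocyte libraries in 4 groups of 3, and p-values were adjusted over all genes by Benjamini-Hochberg at 0.05. SEs are the log2 fold change over the square root of F. Source classes and sides used CPM on total counts plus 0.5 and a 4-fold threshold, with genes under 1 CPM in all 3 tissues called low. Genes at 0 counts in a group were given a bound against 3 counts over the group, which covers counting error only. Named genes were the key stress, contractile and metabolic genes, up to 6 per direction and list with the smallest p, the 10 largest changes per direction and the 5 smallest p per direction in the myocyte class. Alternatives were other scalings, no filter, the 6 wild-type libraries alone, DESeq2 1.42.0, a replicate block, and leaving out each library. On data simulated for this comparison (14851 genes, 199 changed) 67.4% of 2-fold and 82.3% of 4-fold changes were recovered, with 4 unchanged genes called. With 199 genes changed, most genes held their level there, which TMM assumes. A case with as many genes changed as were called in wild type (2634 of 15169) was not tested. Some genes that the rule names are not reported here.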

Additional observations from a re-analysis of the deposited data

How the results depend on the processing

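Scaling and single libraries moved the wild-type counts most. With factors from myocyte-class genes 4623 genes were called, 4383 higher and 240 lower, with 138 rises and 115 falls in the myocyte class. By library size alone the counts were 4340, 4109, 231, 99 and 95. Leaving out a library gave 1352 to 2339 calls, 915 to 1478 higher and 437 to 861 lower, and 24 to 38 rises and 197 to 372 falls in the myocyte class. A class threshold of 2-fold put 105 rising genes on the myocyte side and 1076 on the other-cell side. No other alternative moved these counts by over 1.5 times.

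With the replicate block 2960 genes were called in wild type and 2693 in Q150X cardiomyocytes. Same-numbered wild-type samples deviated together at r = 0.016, 0.071 and 0.104, so the numbers were not taken to pair the samples. In Q150X, leaving out a library gave 2430 to 4418 calls, the lowest without day-3 replicate 3. The interaction was called for 219 genes with no filter on low counts, for 20 by DESeq2 and for 0 to 1 when a library was left out, the 1 without Q150X homeostasis replicate 2.

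Of the genes named, 93 of 106 called ones kept the call in all 6 fits without a wild-type library and 104 under the block. Signs turned in genes that were not called. Atp2a2 stood at 0.068 by library size and 0.105 with myocyte-class factors, and Ddx3y at 0.093 and 0.130. Socs3 stood at 0.046 with myocyte-class factors and between -0.464 (without homeostasis replicate 3) and 0.021 (without homeostasis replicate 1), and Pdk4 between -0.727 (without homeostasis replicate 2) and 0.011 (without homeostasis replicate 1). The cause was not tested.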
